A study of Gallus gallus with 9 samples.

Results

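The DMRT genes encode transcription factors that share the DM domain, a zinc-binding DNA-binding domain. The members considered were DMRT1, DMRTB1, DMRT2, DMRT3 and DMRTA2, taken by gene symbol in the annotation of the Affymetrix GeneChip Chicken Genome Array. Of these 5 genes, 3 were measured (DMRT1, DMRTB1 and DMRT3), among 13009 genes in all, and no probe set carried the symbol of DMRT2 or DMRTA2. The family had 11 probe sets, of which 7 were for DMRT1, 3 for DMRT3 and 1 for DMRTB1, and each gene was represented by its brightest probe set (highest mean log2 value over 9 arrays). Total RNA was taken from gonad cells of 6.5-day chicken embryos labelled WL, after sorting with magnetic beads (MACS). There were 3 arrays of cells labelled PGC, the usual short form of primordial germ cells, and 6 arrays of cells labelled GSC, a name the labels leave unexplained. Neither the antigen used for the sort nor the embryos' sex could be read from the labels. The design compares the sorted fractions with each other. Because no label states that replicates stem from different animals or pools, p-values cover only how far these arrays varied, which may be technical variation.

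In birds DMRT1 lies on the Z chromosome, of which males carry a second copy, and its dose is needed for the embryonic gonad to become a testis. It is present in somatic supporting cells and in germ cells of the vertebrate gonad. DMRTB1, also called DMRT6, acts in mouse spermatogonia at the passage from mitosis to meiosis. DMRT3 patterns spinal interneurons in the mouse, DMRT2 acts in the somites of mouse and zebrafish, and DMRTA2, also called DMRT5, acts in the mouse forebrain.

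The fractions differed in their germ cell and gonadal somatic markers. All 13 measured germ cell markers rose in PGC and all 11 measured gonadal somatic markers fell (limma, adjusted p under 0.05). Of all genes, 22.5% rose and 19.5% fell. Both lists were drawn up with earlier results of these data known, so they are no independent check of the fractions. Most mesonephric markers, described further on, rose in PGC as well. DDX4, the germ cell helicase VASA, was 9.40, 9.51 and 8.36 (log2 value) in PGC replicates 1, 2 and 3, against 4.31 to 4.82 in GSC. In somatic cells of the gonad the transcription factor GATA4 is a marker. It was 2.60, 3.57 and 5.44 in the same PGC arrays, against 6.25 to 6.57 in GSC. The value of 2.60, in PGC replicate 1, lay below 2.88, the mark for array background described further on. Below this mark in the same array were also PDGFRA (2.03), which fell by 2.95, and KITLG (2.63), which fell by 2.10. The log2 difference of GATA4, -2.53, became -1.89 without PGC replicate 1 and -3.31 without PGC replicate 3. PGC replicate 3 thus stood apart: all 13 germ cell markers were lower in it than in PGC replicates 1 and 2, by a median of 0.77 on the log2 scale (-0.77), and the somatic markers were higher by a median of 1.23. Its correlation with the GSC arrays over all probe sets was 0.956 to 0.969, against 0.93 to 0.95 for the other PGC arrays.

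DMRTB1 was the member that differed between the fractions. Its log2 value was 8.40 in PGC replicate 1, 8.38 in PGC replicate 2 and 7.64 in PGC replicate 3, and in the 6 GSC arrays it ran from 3.10 to 3.78 with a median of 3.45. Every PGC array lay far above every GSC array, and groups without overlap, in either direction, were found for 36.4% of all genes. PGC replicate 3 was the lowest of the PGC arrays. The PGC mean was 8.14 ± 0.43 (log2 value, SD over n = 3 arrays) and the GSC mean 3.42 ± 0.24 (SD over n = 6 arrays). This is a level 26.4-fold higher in PGC, with a 95% interval from 19.8 to 35.3. The fitted difference was 4.72 ± 0.19 on the log2 scale (SE, limma adjusted p = 7.473e-08) and ranked 4 among the 13009 genes. In these preparations of many cells, fewer cells of a type and less RNA per cell cannot be told apart.

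The DMRTB1 signal in GSC was low but lay above the level of reporter controls. The 57 reporter (RPTR) probe sets, used here as the array background, had a 95th percentile of 2.88 on the log2 scale, called the reporter mark. None of the 6 GSC arrays and none of the 3 PGC arrays lay below this mark for DMRTB1, so that its fold is not given as a bound. The GSC values, from 3.10 upward, were near the mark, where RMA compresses values, so the fold may be understated. Without PGC replicate 3 the difference was 4.97, and without PGC replicate 1 it was 4.59. DMRTB1 had a single probe set, so no other probe set of the gene could be set beside it.

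**Figure D1:**
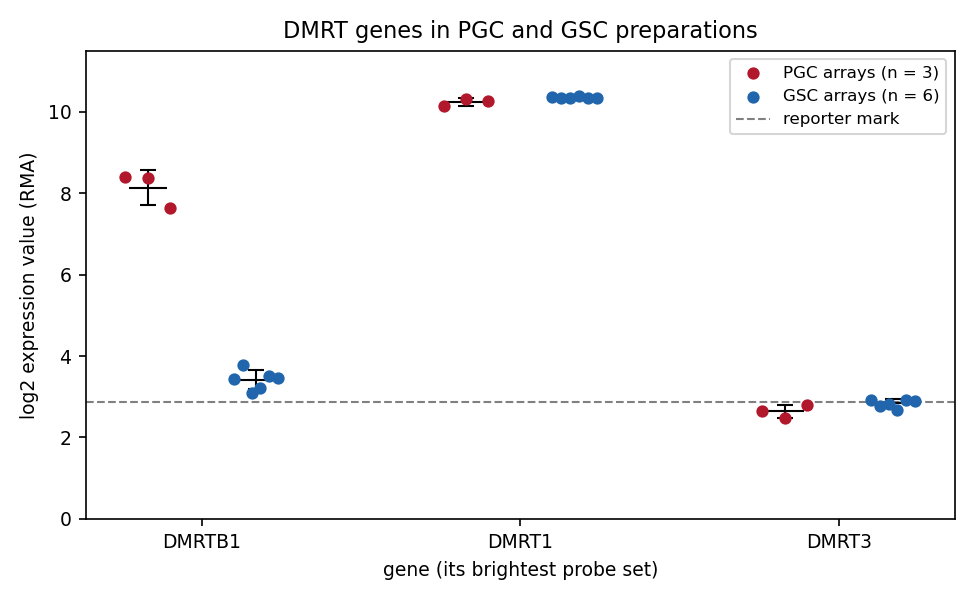
Log2 expression values (RMA) of the brightest probe set of DMRTB1, DMRT1 and DMRT3 in the 3 PGC arrays (red) and 6 GSC arrays (blue), with mean and SD in black and the reporter mark of 2.88 as a dashed line. DMRTB1 stands at 7.64 to 8.40 in PGC and 3.10 to 3.78 in GSC, DMRT1 lies above 10 in all 9 arrays, and DMRT3 lies about the mark in both fractions.

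Genes with placeholder symbols, such as LOC numbers, were left out of the search for profiles like that of DMRTB1. Among the others, those most like it over the 9 arrays were SOX3, DDX4, OTX2, ZIC2 and KIT. Likeness was the root mean square difference between the profiles of log2 values, each less its own mean over the 9 arrays. It was 0.27 for SOX3, an HMG-box transcription factor, and 0.28 for DDX4. It was 0.31 for the homeobox factor OTX2, 0.31 for the zinc finger factor ZIC2 and 0.35 for KIT, the receptor of stem cell factor. Pearson correlations of these genes with DMRTB1 ran from 0.991 to 0.995 over the 9 arrays, which share the contrast of the fractions, and they are given as a description. SOX3 was 9.75, 9.46 and 9.33 in PGC replicates 1, 2 and 3, and KIT was 8.67, 8.81 and 7.62. Of the 5 genes KIT and DDX4 are also among the germ cell markers, and OTX2 was below the reporter mark in all 6 GSC arrays.

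Among the PGC arrays, DMRTB1 and the germ cell markers were all lowest in replicate 3. DMRTB1 was lower in PGC replicate 3 than in the mean of PGC replicates 1 and 2 by 0.75 on the log2 scale (-0.75), beside -0.77 for the median germ cell marker, -1.09 for DDX4, -0.94 for DAZL, a germ cell RNA-binding protein, and -0.47 for DND1, a germ plasm RNA-binding protein. Being lowest in PGC replicate 3 was not confined to germ cell markers. It held for 278 of the 606 measured genes of chromosome Z, and the share over all genes was not counted. It also held for 5 of the 12 neural markers described further on. Their shifts were -1.40 for ZIC2, -1.37 for HES5, -0.71 for ELAVL4, -0.49 for OTX2 and -0.28 for SOX3. The mean log2 value of the 13 germ cell markers ran from 6.53 to 7.43 in the PGC arrays and from 3.67 to 3.91 in the GSC arrays. Markers of mesonephric epithelium, the embryonic kidney tissue beside the gonad, were higher in PGC as well. Of 8 measured, 6 (75%) rose and 1 (12.5%) fell, against 22.5% and 19.5% of all genes. Their mean log2 value was 6.05 to 6.44 in PGC and 3.55 to 4.11 in GSC. Among them the transporter SLC34A2 was at least 14.1-fold higher, since 5 of the 6 GSC arrays were below the mark, and the nephron transcription factor HNF4A at least 6.18-fold higher. The transporter SLC3A1 rose by 3.65 and the cadherin CDH1 by 3.34, PAX2 fell by 0.62 (no longer without PGC replicate 1 or 2 or GSC replicate 1, 2 or 6, at -0.62 to -0.52), and LHX1 was below the mark in all 9 arrays. CUBN rose by 3.29, or by 1.02 with the mean of all its probe sets, and LRP2 rose by 2.72. In PGC replicate 3 these markers moved by a median of 0.09 against the other PGC arrays, but not all alike. The shift was -0.73 for SLC34A2, near that of DMRTB1, -0.27 for CDH1, -0.16 for LRP2 and -0.02 for SLC3A1. It was 0.45 for HNF4A, 0.44 for PAX2, 0.31 for LHX1 and 0.21 for CUBN. The part of mesonephric cells in the DMRTB1 value was not tested.

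**Figure D2:**
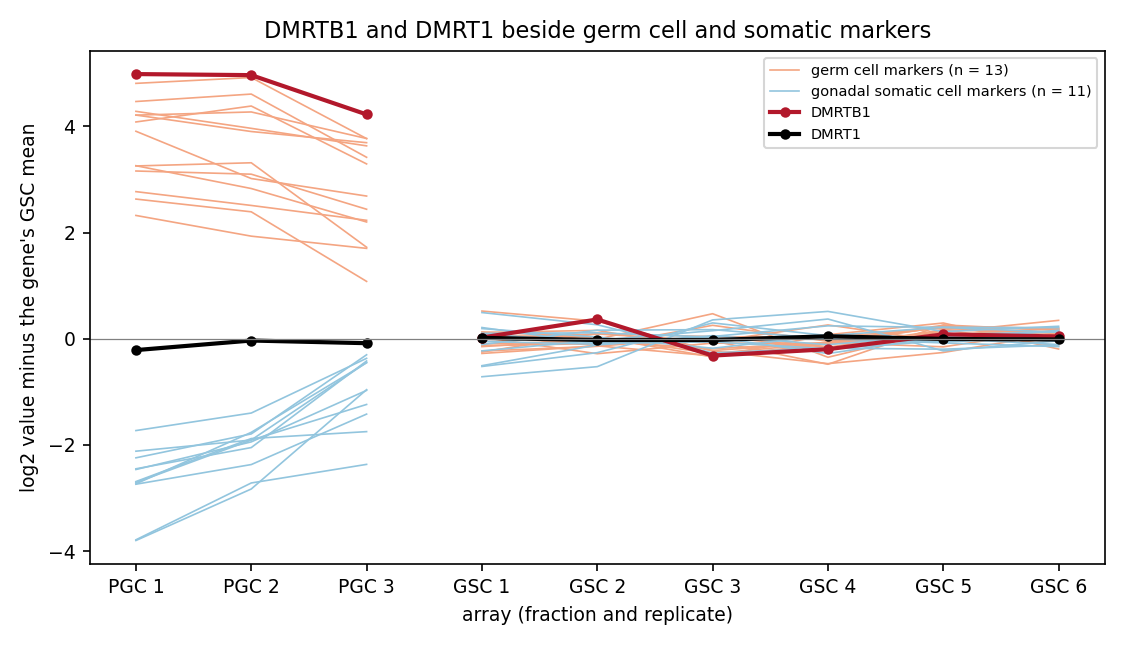
Log2 value of each gene less its mean over the GSC arrays, by array, for DMRTB1 (red), DMRT1 (black), 13 germ cell markers (orange) and 11 gonadal somatic markers (light blue). Lines join the arrays of 1 fraction only to show which points belong to a gene. DMRTB1 and the germ cell markers are lower, and the somatic markers higher, in PGC replicate 3 than in PGC replicates 1 and 2. DMRT1, shown by its brightest probe set alone, stays near 0 in all arrays.

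DMRT1 was measured well above the reporter mark in both fractions, at levels that differed by little. Its brightest probe set measured 10.14, 10.32 and 10.27 (log2) in PGC replicates 1, 2 and 3, and from 10.33 to 10.40 with a median of 10.34 in the 6 GSC arrays. The PGC arrays lay just below every GSC array, PGC replicate 1 being the lowest, and the groups did not overlap, which held for 36.4% of all genes. The PGC mean was 10.24 ± 0.10 (SD over n = 3 arrays) and the GSC mean 10.35 ± 0.03 (SD over n = 6 arrays). The difference of -0.11 ± 0.09 (log2, SE) did not pass (limma adjusted p = 0.3393), and its 95% interval of -0.30 to 0.08 corresponds to a PGC level of 0.813 to 1.06 times the GSC level. In PGC replicate 3 the germ cell and somatic markers moved in opposite directions. For this probe set it differed from the mean of PGC replicates 1 and 2 by 0.04. For the second brightest DMRT1 probe set, described next, it was higher by 0.70.

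The other DMRT1 probe sets did not pass either. The annotation traces the 7 probe sets to 4 different mRNA records. The second brightest measured 6.34, 6.15 and 6.95 in PGC replicates 1, 2 and 3 and 6.51 to 6.84 with a median of 6.69 in GSC. Here the groups overlapped, because PGC replicate 3 lay above every GSC array and the other PGC arrays below every GSC array. Its difference was -0.22 ± 0.16 (log2, SE, limma adjusted p = 0.3512 over all probe sets). The third lay about the reporter mark, at 2.33 to 2.86 in PGC and 2.64 to 3.02 in GSC, with a difference of -0.30 (adjusted p = 0.1512). The other 4 were below the mark in all 9 arrays and had fitted differences of -0.07, -0.15, -0.07 and -0.29, so that no level can be read from them. For the last of these the 95% interval of -0.53 to -0.05 lay below 0, but its adjusted p was 0.0721. Of the 11 probe sets of the family, 1 was called higher and 1 lower, where 28.4% of all 38439 probe sets were called in either direction.

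**Figure D3:**
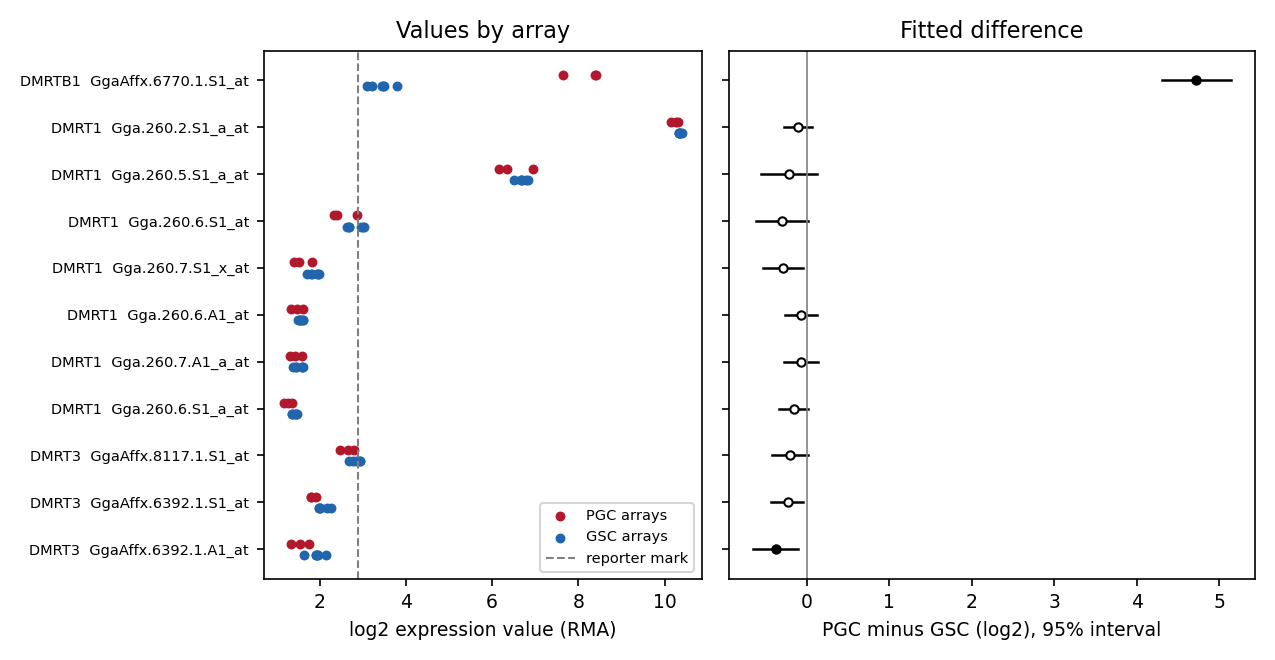
All 11 DMRT probe sets: log2 values by array (left, PGC in red, GSC in blue, dashed line at the reporter mark of 2.88) and the fitted PGC minus GSC difference with its 95% interval (right, filled where the adjusted p over all probe sets was under 0.05). The DMRTB1 probe set stands at 4.72, the 7 DMRT1 probe sets lie between -0.30 and -0.07 with open symbols, and of the DMRT3 probe sets the filled one is below the mark in all arrays.

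DMRT3 was at the level of the array background in both fractions. Its brightest probe set measured 2.65, 2.47 and 2.80 (log2) in PGC replicates 1, 2 and 3 and 2.68 to 2.93 with a median of 2.86 in GSC. All 3 PGC arrays and 3 of the 6 GSC arrays lay below the reporter mark of 2.88, the groups overlapped, and no fold is given. The difference of -0.20 ± 0.10 (log2, SE) did not pass (limma adjusted p = 0.1548, 95% interval -0.43 to 0.03). Its other probe sets were below the mark in all 9 arrays. One of these passed over all probe sets (-0.37, adjusted p = 0.0459), with values of 1.32 to 1.76 in PGC and 1.64 to 2.14 in GSC, and the other did not (-0.23, adjusted p = 0.079). Taken as the mean of its 3 probe sets, DMRT3 passed with a difference of -0.27 (limma adjusted p = 0.0160), a value made of probe sets at or below the background. DMRT2 and DMRTA2 were not analysed here, since no probe set carried their symbols, nor was any other DM domain gene of the list of 4 (DMRTA1, DMRTC1, DMRTC1B and DMRTC2).

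Counted together, 1 of the 3 measured members rose in PGC (DMRTB1), 0 fell, and DMRT1 and DMRT3 did not pass, against 22.5% of all genes higher and 19.5% lower. With 3 members this share is not set against the background by a test.

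DMRT1 is known for its place in gonadal sex differentiation, and the other genes of that process were mostly lower in PGC. Of 38 listed genes 32 were measured, of which 21 (65.6%) fell, 2 (6.25%) rose and 9 did not pass. With single arrays left out in turn, 16 to 24 genes of the list fell and 2 rose. Among all genes 19.5% fell and 22.5% rose. The median log2 difference of the list was -0.77, against a median of -0.02 over all genes. The list shares 6 measured genes with the gonadal somatic markers, and it was drawn up with earlier results of these data known. Among those that fell was HEMGN, a hematopoietic factor that in chicken gonads acts downstream of DMRT1 and that is also among the blood cell markers described further on. It was 6.25, 6.68 and 7.57 in PGC replicates 1, 2 and 3 and 8.16 to 8.45 in GSC, a difference of -1.45. The oestrogen receptor ESR1 fell by 2.25, LHX9, a gonadal homeobox factor, by 2.17, ZFPM2, the GATA4 cofactor, by 2.11, and NR5A1, a regulator of steroid synthesis genes, by 1.16. CYP19A1, the aromatase that makes oestrogen, was 6.73, 7.88 and 8.38 in PGC and 8.51 to 10.15 in GSC, and fell by 1.96. FOXL2, a factor of the ovary, was 4.85, 4.73 and 6.11 in PGC and 5.78 to 6.18 in GSC. It fell by 0.79, while PGC replicate 3 lay among the GSC arrays, and it no longer passed when PGC replicate 1 (-0.60) or PGC replicate 2 (-0.54) was left out.

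Other genes close to DMRT1 in this process did not pass. SOX9, the factor of Sertoli cells, was 4.50, 4.79 and 5.77 in PGC and 4.93 to 5.70 in GSC, with a difference of -0.43 ± 0.26 (log2, SE, limma adjusted p = 0.2104). AMH, the hormone of the supporting cells that makes the Müllerian duct regress, was 10.21, 11.14 and 11.51 in PGC and 11.30 to 11.74 in GSC (-0.62 ± 0.24, adjusted p = 0.0562). For both genes PGC replicates 1 and 2 lay below every GSC array, while PGC replicate 3 did not. Without PGC replicate 3 both passed as lower, SOX9 at -0.81 and AMH at -0.90. AMH also passed with dim probe sets left out or a trended robust prior, at the same difference of -0.62. The members that rose were PTGDS, a prostaglandin D synthase, which was 4.89-fold higher, and the oestrogen receptor ESR2, which was below the reporter mark in all 6 GSC arrays and at least 1.23-fold higher. HINTW, a gene of the W chromosome with near-identical copies, whose value is therefore uncertain, was 9.55 to 10.01 in PGC and 9.96 to 10.48 in GSC (-0.34, adjusted p = 0.1005).

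**Figure D4:**
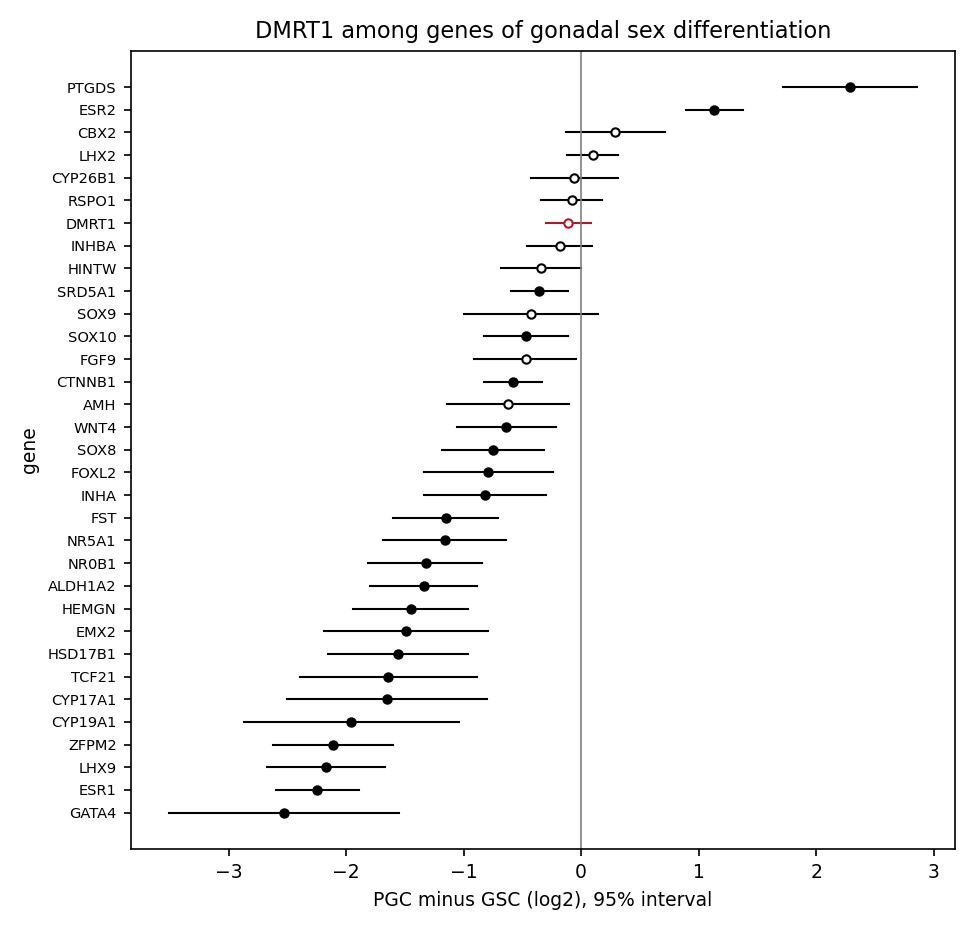
Fitted PGC minus GSC differences (log2) with 95% intervals for the 32 measured genes of gonadal sex differentiation and for DMRT1 (red), in order of the difference and filled where the adjusted p over all genes was under 0.05. DMRT1 lies at -0.11 with an interval of -0.30 to 0.08, and the 21 genes that fell run down to -2.53 for GATA4.

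A list of spermatogonial and meiotic genes studied with mouse DMRT1 or DMRTB1 was higher in PGC for the greater part. The list also holds FOXL2 and SOX9, described above as factors of the ovary and of Sertoli cells. Of 24 listed genes 15 were measured, of which 9 (60%) rose, 1 (6.67%) fell and 5 did not pass. Among all genes 22.5% rose and 19.5% fell. The median log2 difference of the list was 1.32, against -0.02 over all genes. Its members were chosen with earlier results of these data known. The list shares 4 measured genes with the germ cell markers and 2 with the sex differentiation genes. STRA8, needed for entry into meiosis, was 3.90, 3.83 and 2.78 in PGC replicates 1, 2 and 3 and 1.40 to 1.70 in GSC. All 6 GSC values and 1 PGC value were under the reporter mark, and STRA8 was at least 1.54-fold higher, with a fitted difference of 1.94, or 1.32 with the mean of all its probe sets. SYCP3, of the synaptonemal complex, was 4.53, 4.29 and 2.98 in PGC, under the mark in each of the 6 GSC arrays, and at least 2.07-fold higher. In PGC replicate 3 both lay well below the other PGC arrays (-1.08 for STRA8 and -1.43 for SYCP3).

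The GDNF receptor genes of mouse spermatogonia were also higher in PGC. RET, the kinase subunit, was 6.96, 6.93 and 5.09 in PGC replicates 1, 2 and 3, under the mark in every GSC array, and at least 10.9-fold higher. Its fitted difference was 3.88, 4.50 without PGC replicate 3, and 2.20 with the mean of all its probe sets. GFRA1, the ligand-binding subunit, rose by 2.44 and ID4, an inhibitor of DNA binding found in mouse spermatogonial stem cells, by 1.32. The zinc finger protein gene SALL4, active in pluripotent and germ cells, was at least 15.4-fold higher, 1 GSC array being below the mark. SOX2, a pluripotency factor, was 2.59 to 2.74 in PGC and 2.43 to 3.12 in GSC, with 5 GSC arrays below the mark, and did not pass (-0.10), nor did the meiotic genes SYCP1 (-0.10) and DMC1 (0.13), which were below the mark in all 9 arrays. The gene that fell was FOXL2, so that 0 genes of the list fell without PGC replicate 1 or 2, and with SOX9 2 fell without PGC replicate 3. Among the genes of the list not measured were SOHLH1, SOHLH2 and CRABP2.

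The genes beside the members on the chromosome differed in either direction. In the RefSeq gene table of assembly GRCg7b, DMRT1, DMRT3 and DMRT2 follow each other on chromosome Z. Of the 10 nearest measured genes, 5 on either side, 4 fell in PGC and 0 rose, with a median log2 difference of -0.12. KANK1, a cytoskeletal regulator and the nearest measured gene on the DMRT1 side, was 7.30, 7.49 and 7.92 in PGC and 7.89 to 8.12 in GSC, and fell by 0.41. SMARCA2, a chromatin remodelling ATPase and the nearest on the DMRT2 side, fell by 0.47, the lipoprotein receptor VLDLR by 0.90 and PGM5 by 0.49. Without PGC replicate 1, 2 of the 10 fell, since KANK1 (-0.27) and SMARCA2 (-0.51) no longer passed. KANK1 also lost its call without PGC replicate 2 or GSC replicate 1 or 2 (-0.39 to -0.37), and SMARCA2 without PGC replicate 3 (-0.31) or GSC replicate 4 or 6 (-0.43 to -0.40). Without PGC replicate 3, PUM3 rose (0.57) and RFX3 fell (-0.58). DOCK8 (0.11), KCNV2 (0.08), TMEM252 (0.12), CBWD1 (0.11), PUM3 (0.16) and RFX3 (-0.31) did not pass, the first 3 being below the reporter mark in all 9 arrays. Over the 606 measured genes of chromosome Z, 134 (22.1%) rose and 159 (26.2%) fell, with a median of -0.06, beside 22.5% and 19.5% of all genes. The excess of Z genes that fell was not tested.

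DMRTB1 and DMRTA2 both lie on chromosome 8, apart from each other. Of the 10 nearest measured genes of each, 9 of the 20 (45%) rose and 1 (5%) fell, with a median of 0.13. The shares over all genes were 22.5% and 19.5%, and the difference from them was not tested. The nearest measured genes of DMRTB1 were GLIS1, a zinc finger factor at 2.34 to 2.87 in GSC, which was at least 1.38-fold higher in PGC, and LRP8, called at 0.37 with all 9 arrays below the mark. The LRP8 call was lost without PGC replicate 1 (0.31) or 2 (0.29) or GSC replicate 4 or 5 (both 0.34). The deiodinase gene DIO1, the fourth measured gene after DMRTB1, was 5.64, 6.69 and 6.19 in PGC, under the mark in every GSC array, and at least 9.80-fold higher, and HSPB11 rose by 0.54, but not without PGC replicate 1 (0.41) or GSC replicate 2 or 3 (both 0.48). MAGOH, NDC1, YIPF1, SLC1A7 and CPT2 had differences of -0.16 to 0.19 and did not pass. CZIB fell by 0.69, being below the mark in all 3 PGC arrays and 3 GSC arrays, a call lost without PGC replicate 1 (-0.65). Beside DMRTA2, ELAVL4, whose product binds RNA in neurons, rose by 3.24, BEND5 by 1.60, SLC5A9 by 1.64, RNF11 by 0.94 and TTC39A by 4.03. With the mean of all its probe sets BEND5 was at 0.94. SPATA6, FAF1, CDKN2C, TRABD2B and EPS15 did not pass, with differences of -0.35 to -0.14. TRABD2B passed as lower without PGC replicate 2 (-0.51), and EPS15 with its probe set of the largest SD (-1.02).

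Markers of the tissues in which DMRT2, DMRT3 and DMRTA2 are known to act gave a mixed picture. For comparison, 22.5% of all genes rose and 19.5% fell. Of 12 markers of neural progenitors and neurons, 6 (50%) rose, 2 (16.7%) fell and 4 did not pass, with a median of 0.17. SOX3 was 33.1-fold higher, the Notch target HES5 32.1-fold, and OTX2 and ZIC2 at least 18.4-fold each, being below the mark in 6 and 4 GSC arrays. These bounds hold for the brightest probe set: with the mean of all probe sets of the gene, the fitted difference of OTX2 was 3.78 in place of 4.76, and that of ZIC2 2.31 in place of 4.34. STMN2, a neuronal tubulin-binding protein, fell by 1.65 (-2.31 without PGC replicate 3) and NES, an intermediate filament protein, by 0.71. NES lost its call without PGC replicate 1 (-0.71) or 2 (-0.48), which left 1 that fell, and 3 fell without PGC replicate 3. The neural genes NEUROD1 (0.00) and ZIC1 (-0.01) were below the mark in all 9 arrays, and so was PAX6, which was called at 0.34. Of 11 somite and skeletal muscle markers, 2 (18.2%) rose, 1 (9.09%) fell and 8 did not pass, shares no larger than those over all genes. Their median was -0.07, and 4 were below the mark in all 9 arrays. ACTA1, skeletal actin, rose by 1.90. MYOD1 was called higher with all 6 GSC and 2 PGC arrays below the mark, and MEOX2 lower with all 3 PGC and 4 GSC arrays below it, so that no fold is given for either. The MEOX2 call was lost without any 1 of the arrays other than GSC replicate 2 and PGC replicate 3, and 3 fell without PGC replicate 3. Endothelial and blood cell markers fell in 8 of 9 (median -1.45), among them TEK, a receptor of endothelial cells, by 1.79 and PTPRC, of leukocytes and below the mark in 2 PGC arrays, by 1.49 (-0.82 with the mean of all its probe sets). Only HBA1, a globin, was not called (-0.22). CDH5, of endothelial junctions, fell by 1.59 (-0.97 without PGC replicate 1). Their part in the DMRT values was not tested.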

How the data were processed

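The deposited values were 1 log2 value per probe set and array, made by the authors with RMA (background correction, normalization between arrays, probe summary) per the submitters' processing notes, whose version is not known here. The log2 scale was taken from the range of the values, 0.79 to 12.39. Of 38535 probe sets, 96 AFFX controls were left out and 38439 tested, and the brightest of each gene stood for it (13009 genes). Symbols came from the platform annotation, and 12872 genes had an entry in RefSeq's gene table of assembly GRCg7b, used for chromosome and order only. The fit, by limma 3.58.1 under R 4.3.3 (lmFit, eBayes), had fraction as its only term over 9 arrays, with two-sided p-values adjusted by Benjamini and Hochberg over all genes or all probe sets, called under 0.05, and tested on simulated data. SEs are moderated. RMA compresses dim values. A fold is given as "at least" where arrays of the dimmer group lay below the reporter mark and were set at it. For arrays, their number limits the precision.

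Named were all members, 4 fraction checks, up to 4 called genes in each direction of a list with the largest differences, 12 fixed genes, neighbours (5 measured on either side), and the 5 most like genes. The most like genes were sought among genes without a placeholder symbol. Genes outside this rule for naming are list members chosen after their values were seen. Members and the 12 lists were chosen with earlier results of these data known, and 111 of 138 list symbols were measured. Lists have no set test. The 19 alternatives were the 9 arrays left out in turn, GSC replicates 1 to 3 or 4 to 6 only, a replicate block, quantile normalization, median centring, other probe set rules, a filter on dim probe sets, array weights, and a trended robust prior.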

Additional observations from a re-analysis of the deposited data

Results flagged for a closer look

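No DMRT probe set had an array far from the others among the 6 GSC arrays, by Dixon's ratio of gap to range at the 95% level. Among 83 groups of 6 GSC values examined, 5 genes named here had such an array, where chance flags about 1 in 20 groups. KDR, an endothelial receptor, was highest in GSC replicate 1 at 6.52 (log2). NR5A1 was lowest in GSC replicate 4 at 6.93. Of the neighbours of the DMRT genes, KCNV2 was highest in GSC replicate 3 at 1.64, YIPF1 lowest in GSC replicate 4 at 7.29 and CDKN2C highest in GSC replicate 2 at 3.04.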

How the results depend on the processing

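DMRTB1 kept its direction and its call under all 19 alternatives, with log2 differences of 4.59 to 4.97, and DMRT1 stayed uncalled under all 19 (-0.22 to -0.06, adjusted p 0.1053 to 0.7106). DMRT3 was uncalled under 16 of 18, and called with the mean of all its probe sets (-0.27) or the one with the largest SD (-0.37), which gave 1 member lower in place of 0; the dim filter removed it. Leaving out arrays gave 2298 to 3321 genes higher and 1914 to 2983 lower. With fewer arrays, GSC replicates 1 to 3 alone, 1863 genes were higher and 1531 lower.

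The labels do not say whether a replicate number marks a shared animal or batch. The deviations of same-numbered arrays from their group means correlated at 0.19, -0.128 and -0.008. With 3 arrays a group, these values cannot tell whether same-numbered arrays share an animal or batch. With the replicate block, 1845 genes were higher and 1287 lower, DMRTB1 was 4.70 and called, and DMRT1 (-0.10) and DMRT3 (-0.20) were uncalled. Under the block, 0 mesonephric, 0 neural, 0 somite, 0 spermatogonial, 0 Z-locus and 0 chromosome 8 neighbours fell, 1 somite marker rose and 82 Z genes fell.

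Small counts of lists moved as follows. With GSC replicates 1 to 3 only, 1 neural marker, 0 somite markers, 0 spermatogonial genes, 1 Z-locus neighbour, 0 chromosome 8 neighbours and 98 Z genes fell, and 1 somite marker rose. With GSC replicates 4 to 6 only, 0 mesonephric, 1 neural and 0 spermatogonial genes fell and 1 somite marker rose. With array weights, 0 mesonephric, 0 somite, 2 Z-locus and 0 chromosome 8 neighbours fell. With dim probe sets left out, 1 somite and 1 sex differentiation gene rose and 0 somite and 0 chromosome 8 neighbours fell. With the mean of all probe sets or the largest SD, 0 mesonephric markers fell, and with the latter 2 chromosome 8 neighbours fell. Over the arrays left out, those that fell were 0 to 1 mesonephric, 1 to 3 neural, 0 to 3 somite, 0 to 2 spermatogonial, 2 to 4 Z-locus and 0 to 2 chromosome 8 neighbours, and 0 to 1 Z-locus neighbours rose.

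With GSC replicates 1 to 3 only, STMN2, CDH5, CYP19A1, FOXL2, KANK1, PGM5, SMARCA2, MYOD1, MEOX2, CZIB, LRP8 and HSPB11 lost their calls.

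Signs turned only for PAX2 (0.27 with the largest SD), DOCK8 (-0.09 with the mean of all probe sets), and genes uncalled before and after the turn. Over the arrays left out, DOCK8 ran from -0.03 to 0.18, CBWD1 from -0.09 to 0.22, PUM3 from -0.14 to 0.57 (called without PGC replicate 3), SLC1A7 from -0.08 to 0.00, YIPF1 from -0.03 to 0.15, SPATA6 from -0.29 to 0.00, FAF1 from -0.38 to 0.01 and CDKN2C from -0.24 to 0.01. SLC1A7 was 0.02 with GSC replicates 1 to 3, with or without the replicate block. Where the construction does not show it, the cause was not tested.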
